A study of Mus musculus with 3 samples.

Results

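The genes examined here encode the CREB family of transcription factors and the cofactors through which cyclic AMP (cAMP) acts on them. The 10 genes were listed by name: *Creb1*, *Crem* and *Atf1*, the coactivator genes *Crtc1*, *Crtc2* and *Crtc3*, the acetyltransferase genes *Crebbp* and *Ep300*, and the kinase genes *Sik1* and *Sik2*. They are 10 of the 21938 protein-coding genes of the annotation used, and the rule that assigns peaks to them uses position alone. Peaks of Ad4BP/SF-1, the nuclear receptor that directs steroidogenic gene expression, were assigned to a gene when they overlapped its body or the 50 kb on either side. Vehicle-treated Leydig cells had such a peak at 4 of the 10 genes, beside 36.7% of all protein-coding genes, and cAMP-treated cells at 2, beside 28.9%.

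Chromatin was immunoprecipitated with an antibody against Ad4BP/SF-1 from Leydig cells, the androgen-producing cells of the testis, and sequenced (ChIP-seq). The cells were isolated on a Percoll gradient from the pooled testes of 10 male ICR mice aged 9 weeks and received vehicle or cAMP in culture, and the dose and duration of cAMP are not given in the sources used here. There was 1 library per condition, so that differences between vehicle and cAMP have no replicate check, and no file of the input DNA was used. The lists held 5721 vehicle and 4025 cAMP peaks, each with a score from the peak caller MACS. The sources used here do not state its scale, which in MACS versions of that time is −10 log10 of the p-value and grows with depth as well as with enrichment. The sequencing depth is unknown because the lists carry no read numbers, and the lists cannot check the cell type against marker expression.

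In the classical pathway, luteinizing hormone raises cAMP in Leydig cells, and protein kinase A then phosphorylates CREB, which binds the cAMP response element (CRE). Phosphorylated CREB recruits the acetyltransferases CBP (encoded by *Crebbp*) and p300 (*Ep300*). The CRTC coactivators are held in the cytoplasm while the salt-inducible kinases (SIK) phosphorylate them, and they enter the nucleus and bind CREB once cAMP has silenced these kinases.

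The peaks of the 10 genes fell into 5 separate regions, and the sequences below show, for 4 of them, the 150 bases around the element that the region holds. All are written on the plus strand of mm10. Capitals mark copies of YCAAGGYC on either strand, where Y is C or T, a form of the binding sequence of Ad4BP/SF-1. The last of them holds no copy, and its capitals mark TGACG, the short core of the CRE. In order they lie at chr15:100237598-100237747, chr8:70457113-70457262, chr7:80687762-80687911 and chr3:90264916-90265065.
*Atf1* intron 2, vehicle and cAMP: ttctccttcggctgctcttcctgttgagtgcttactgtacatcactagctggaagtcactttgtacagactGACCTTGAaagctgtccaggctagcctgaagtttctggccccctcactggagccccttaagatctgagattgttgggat
*Crtc1* upstream, cAMP: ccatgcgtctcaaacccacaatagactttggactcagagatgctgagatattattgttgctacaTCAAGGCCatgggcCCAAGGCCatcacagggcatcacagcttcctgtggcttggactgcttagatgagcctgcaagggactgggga
*Crtc3* intron 1, vehicle: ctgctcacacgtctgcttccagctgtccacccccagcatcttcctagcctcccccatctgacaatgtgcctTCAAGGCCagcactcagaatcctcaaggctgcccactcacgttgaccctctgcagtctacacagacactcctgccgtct
*Crtc2* downstream, vehicle: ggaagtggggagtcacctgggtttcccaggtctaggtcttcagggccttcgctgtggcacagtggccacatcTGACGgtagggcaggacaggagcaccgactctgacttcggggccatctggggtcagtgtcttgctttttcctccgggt

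Among the CREB family factors, *Atf1* alone had peaks, and it was also the only one of the 10 genes whose peaks in the vehicle and cAMP lists overlapped. With the vehicle list cut to its top 4025 peaks, the length of the cAMP list, the vehicle peak of *Atf1* was lost and no gene had overlapping peaks. *Atf1*, whose product pairs with CREB on CREs, lies on the plus strand of chromosome 15 from 100227819 to 100261244. The vehicle peak ran from 100237442 to 100237968 and scored 53.66, which placed it at rank 5033 of 5721. The cAMP peak, from 100237570 to 100237899, lay wholly inside it, scored 60.60 and ranked 2549 of 4025. Both were thus in the lower part of their lists, above 12.0% (vehicle) and 36.7% (cAMP) of the peaks. Their centres were 9.89 kb (vehicle) and 9.92 kb (cAMP) from the outermost 5′ end, in intron 2, and 4.95 and 4.98 kb downstream of the nearest annotated transcription start site (TSS) of *Atf1*. No protein-coding TSS of another gene was nearer. Each peak held the same single copy, TCAAGGTC on the minus strand from 100237669 to 100237676. The copy was 32 bp from the centre of the vehicle peak and 61 bp from that of the cAMP peak.

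*Creb1*, which encodes CREB itself, and *Crem*, known for its activator in spermatids and for the inducible repressor ICER, had no peak in either list. *Creb1* occupies chromosome 1 from 64532645 to 64604548. The nearest peaks were 160 kb (cAMP) and 436 kb (vehicle) beyond its 3′ end. *Crem* lies on chromosome 18 from 3266048 to 3337748. The nearest peaks of both lists were 255 kb beyond its 3′ end and overlapped each other. These were wide, at 2376 bp (vehicle) and 3238 bp (cAMP), against medians of 513 and 476 bp over all peaks, and neither held YCAAGGYC.

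Each of the 3 CRTC genes had a vehicle peak within 50 kb, beside 36.7% of all protein-coding genes. No vehicle peak at them overlapped a cAMP peak, and over the whole list 37.9% of vehicle peaks did. At equal list length *Crtc1* and *Crtc2* kept their vehicle peak and *Crtc3* did not, and with scores of at least 75 *Crtc2* alone kept it. *Crtc1* was the only one of them with a peak in the cAMP list, at another site. *Crtc1* lies on the minus strand of chromosome 8 from 70382355 to 70439579. Its vehicle peak was in intron 12 near the 3′ end, 51.7 kb from the outermost 5′ end, scored 63.18 and ranked 3723. The nearest protein-coding TSS to this peak was that of *Comp*, a cartilage matrix gene, 7.72 kb away. The nearest cAMP peak was 68.8 kb away.

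The cAMP peak of *Crtc1*, from 70456866 to 70457546, was centred 17.6 kb upstream of its 5′ end, within intron 1 of the neighbouring gene *Klhl26*. It had the highest score among the peaks of the 10 genes, 108.32, and ranked 772, above 80.8% of the cAMP peaks. It was also the only peak at these genes with more than 1 consensus copy. TCAAGGCC and CCAAGGCC, which start at 70457177 and 70457191 on the plus strand, lay 25 and 11 bp from its centre. The nearest vehicle peak was 64.9 kb away. Of all cAMP peaks that scored at least 100, 88.6% (95% exact Clopper-Pearson interval 86.3% to 90.5%) overlapped a vehicle peak, and the *Crtc1* peak was among those that did not.

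Outside the 50 kb window, *Crtc1* had a further group of peaks whose nearest edges were 82.9 to 90.0 kb from its 5′ end, 4 from vehicle and 2 from cAMP. The strongest of these scored 235.99 (vehicle) and 290.40 (cAMP), and these 2 overlapped each other. A weaker pair, at 105.64 and 112.39, also overlapped.

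*Crtc3* lies on the minus strand of chromosome 7 from 80586627 to 80688877, and its vehicle peak was the nearest to a start site of its own gene. The peak ran from 80687725 to 80688072 in intron 1, with its centre 0.979 kb downstream of the TSS. It scored 59.20, ranked 4225 and held 1 copy, TCAAGGCC, 61 bp from its centre. In the cAMP list the nearest peak to *Crtc3* lay beyond its 3′ end, 50.8 kb away and so just outside the window, with a score of 69.89.

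The peak assigned to *Crtc2* differed from the other peaks in place and in sequence. *Crtc2*, the CRTC gene best known from glucose production in the liver, lies on the plus strand of chromosome 3 from 90254163 to 90264125. The vehicle peak, from 90264893 to 90265447, began 0.767 kb beyond its 3′ end, and it spanned the TSS of the next gene, *Dennd4b*. It was 11.0 kb from the 5′ end of *Crtc2* and lay within 50 kb of 7 protein-coding genes in all. With a score of 81.98 and rank 2245 it was the highest vehicle peak at the 10 genes and the only one above the list's median of 72.4. It held neither YCAAGGYC nor the shorter CAAGGYC. Its GC content was 68.8%, higher than that of 99.1% of the vehicle peaks. A single TGACG, at 90264988, lay 180 bp from its centre. The nearest cAMP peak was 102 kb from this peak and 91.4 kb upstream of *Crtc2*, with a score of 76.63. Outside the window, *Crtc2* also had a vehicle peak 68.4 kb upstream, with a score of 125.39 (rank 955) and 2 copies of YCAAGGYC.

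No peak of either list was assigned to the acetyltransferase genes or the kinase genes. *Crebbp*, on chromosome 16 from 4081328 to 4213997, had a cAMP peak just outside the window, 51.4 kb upstream with a score of 53.09, and its nearest vehicle peak was 145 kb away. *Ep300*, on chromosome 15 from 81585351 to 81652077, had its nearest vehicle peak 73.1 kb upstream, with a score of 79.76, and its nearest cAMP peak 220 kb away. For *Sik1*, itself a gene induced by cAMP through CREB, the nearest peaks were 121 kb (cAMP) and 204 kb (vehicle) from the gene, which lies on chromosome 17 from 31844250 to 31855804. For *Sik2*, on chromosome 9 from 50892801 to 51009073, they were 119 kb (vehicle) and 270 kb (cAMP) away. A gene without a peak had none in the deposited lists, whose lowest scores were 50 (vehicle) and 50.01 (cAMP), so weaker binding was not detectable here.

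**Figure D1:**
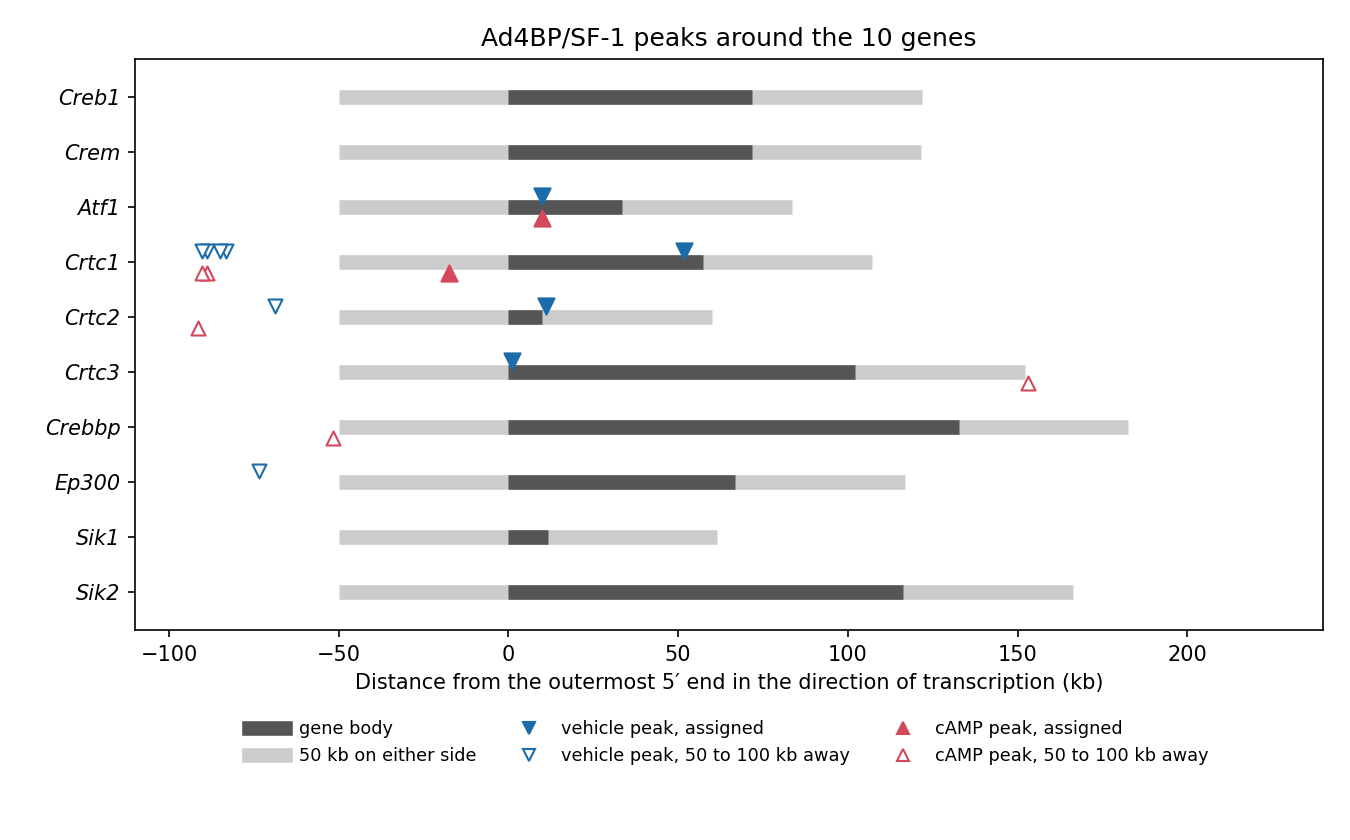
Peaks around the 10 genes, plotted by the distance of their centre from the outermost 5′ end of the gene in kb, in the direction of transcription. Dark bars are gene bodies, light bars the 50 kb on either side, filled triangles assigned peaks and open triangles peaks 50 to 100 kb from the gene body. *Atf1* has a peak of both lists at one place, the CRTC genes have peaks of 1 list at each place within the window, and the other 6 genes have no filled triangle.

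Within 50 kb, the share of the 10 genes with a peak was near that of all protein-coding genes. A vehicle peak within 50 kb was found for 4 of the 10 genes, and for 36.7% of all protein-coding genes. In the cAMP list 2 of the 10 had one, beside 28.9% of all genes. Both lists had a peak at 2 of the 10, beside 22.5%, and either list at 4 of the 10, beside 43.1%. Within the gene body alone, 3 of the 10 genes (*Atf1*, *Crtc1* and *Crtc3*) had a vehicle peak and 1 (*Atf1*) a cAMP peak, beside 12.6% and 9.16% of all genes. With 10 or 20 kb on either side, 4 of the 10 had a vehicle peak, beside 19.3% and 24.6% of all genes. In the cAMP list 1 of the 10 had a peak with 10 kb and 2 with 20 kb, beside 14% and 18.2%. The 10 genes are long, with a median of 69.2 kb against 17.4 kb for all protein-coding genes, and over all genes the share with a peak in the body was higher in longer genes. In the vehicle list it was 3.54% for genes under 10 kb, 11.6% for 10 to 50 kb, 22.8% for 50 to 100 kb and 34.6% for genes over 100 kb. *Atf1*, at 33.4 kb, belongs to the class of 10 to 50 kb. Per length of window, the 10 genes held 2.39 vehicle and 1.19 cAMP peaks per Mb, and the genome held 2.16 and 1.52.

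**Figure D2:**
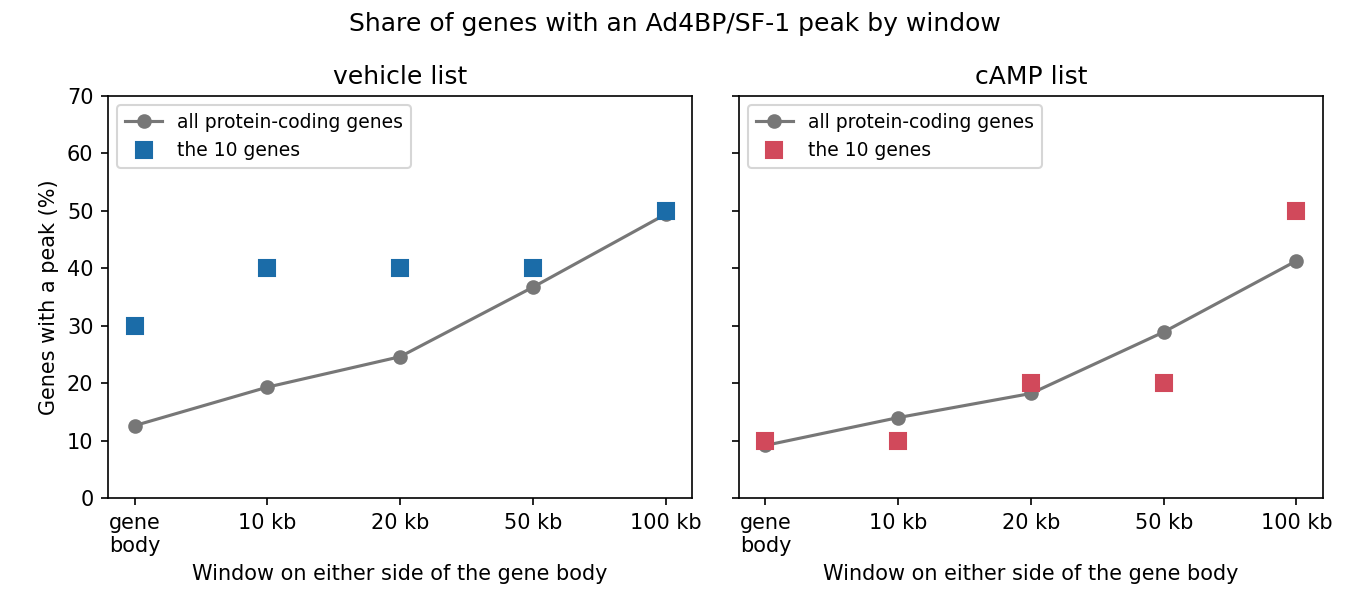
Share of genes with a peak (vertical axis, %) for 5 windows around the gene body, in the vehicle list (left) and the cAMP list (right). Squares are the 10 genes and circles all 21938 protein-coding genes. In the vehicle list the squares lie at 30% to 40% from the gene body to 50 kb while the circles rise from 12.6% to 36.7%, and in the cAMP list they lie at 10% to 20% over the same windows.

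The assigned peaks lay on both sides of the medians of their lists. Vehicle scores ran from 53.66 to 81.98, and 3 of the 4 were below the median of their list. The cAMP scores were 60.60 and 108.32, on either side of the cAMP median of 67.9. By definition about 50% of any list lies below its median, and these peaks are too few to be set apart from that share. With only peaks that score at least 75, *Crtc2* alone of the 10 genes had a vehicle peak and *Crtc1* alone a cAMP peak, beside 22.4% and 14.6% of all protein-coding genes, and no gene had both. Only 1 of the 4 vehicle peaks had a counterpart in the cAMP list. Among all vehicle peaks that score under 75, 22.2% (20.8% to 23.7%) had one, and among those that score at least 75, 55.8% (53.9% to 57.7%). These intervals are exact Clopper-Pearson intervals and cover counting error only.

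**Figure D3:**
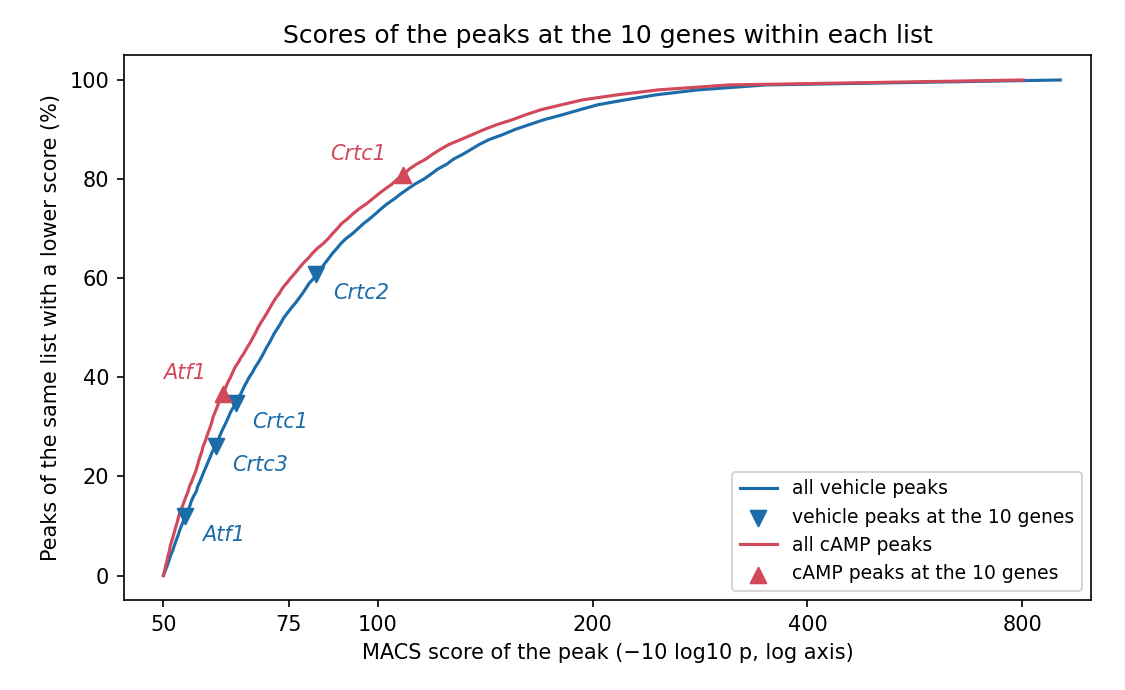
MACS scores of the 6 assigned peaks (horizontal log axis) against the percentage of peaks in the same list that score lower (vertical axis). Lines are all peaks of the vehicle and cAMP lists and triangles the peaks at the named genes. The cAMP peak of *Crtc1* stands above 80.8% of its list, while the vehicle peaks of *Atf1*, *Crtc3* and *Crtc1* stand between 12.0% and 34.9%.

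The consensus was present in 3 of the 4 vehicle peaks (75%, 95% exact interval 19.4% to 99.4%) and in both cAMP peaks. Over the whole lists it was present in 80.4% and 77.1% of the peaks. All copies inside these 6 peaks were within 67 bp of a peak centre, while the median distance over the lists was 45 bp (vehicle) and 46 bp (cAMP). The full CRE, TGACGTCA, was in none of the 6 peaks, and it was rare in the lists, at 0.699% of vehicle and 0.770% of cAMP peaks. TGACG on either strand, which the full CRE contains, was in 1 of the 6, beside 18.7% and 17.9% of the peaks of the lists. The peaks at the CRTC genes were rich in GC. The *Crtc1* peaks had 58.1% (vehicle) and 56.1% (cAMP) and the *Crtc3* peak 56.6%, each higher than at least 90.7% of the peaks of their list, while both *Atf1* peaks were below the medians of 48.2% (vehicle) and 47.4% (cAMP). A match to a sequence is a description of these letters and not evidence of binding by a factor.

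Most copies of the consensus near these genes were in no peak. The windows of the 10 genes, 1674 kb in all, held 442 copies, or 0.264 per kb, against 0.184 per kb of the genome. A peak of either list covered 5 of the 442 copies (1.13%), 3 of them at *Crtc1*, and in the genome 7516 of 487156 (1.54%). Per kb of window, the 4 genes with a peak had 0.287 to 0.382 copies. The genes without a peak ranged from 0.162 at *Sik2* and 0.163 at *Creb1*, both below the genome, to 0.312 at *Ep300* and 0.323 at *Sik1*, within the range of the genes with a peak.

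Among 36 genes related to the 10 by family or pathway, 22 (61.1%) had a vehicle peak and 20 (55.6%) a cAMP peak within 50 kb. Both lists had one at 17 (47.2%). The shares of all protein-coding genes were 36.7%, 28.9% and 22.5%. The lists of relatives were chosen with earlier results of these data known, so these shares do not measure a preference for such genes. The comparison also does not account for gene length, and some relatives are long, such as *Creb5* (413 kb) and *Hdac4* (267 kb). Among 17 other CREB and ATF genes, 10 had a vehicle peak and 9 a cAMP peak. *Atf4*, which drives the integrated stress response, had 3 vehicle peaks, and each overlapped a cAMP peak, with scores of 87.66, 74.21 and 70.42 (vehicle) and 98.79, 69.53 and 92.17 (cAMP). The first lay upstream of *Atf4*, the next in its intron 1 and the last downstream, in intron 1 of *Cacna1i*. *Creb3l1* and *Creb3l2*, which encode membrane-bound relatives of CREB, had overlapping peaks of both lists in intron 1, with scores of 90.63 (vehicle) and 70.80 (cAMP) at the former and 100.37 and 75.71 at the latter. *Creb3l1* also had 2 vehicle peaks upstream that no cAMP peak overlapped, with scores of 154.89 and 75.39. The nearest TSS to both was that of *Phf21a*. The vehicle peak of *Crtc2* is the only peak within 50 kb of *Creb3l4*, so these counts are not independent. Of 6 other kinase and phosphatase genes of the CRTC switch, 4 had a vehicle and 3 a cAMP peak. *Sik3*, the third salt-inducible kinase gene, had a vehicle peak in intron 16 (score 85.70) and 2 cAMP peaks upstream (208.71 and 54.32), none of which overlapped. The stronger cAMP peak lay in the untranslated part of exon 6 of *Pafah1b2*, nearest to the TSS of *Sidt2*. The weaker was nearest to the TSS of *Pafah1b2*. *Stk11*, which encodes the kinase LKB1 that activates the SIKs, had 8 vehicle and 4 cAMP peaks. None of them lay in its body or had its TSS as the nearest. Of 13 other coactivator and deacetylase genes, 8 had a vehicle peak, 8 a cAMP peak and 7 both. *Cited2*, which encodes a partner of CBP and p300, had cAMP peaks alone, both upstream of its TSS, with scores of 88.75 and 53.21. *Kat2b*, an acetyltransferase gene, had overlapping peaks of both lists in intron 1, with scores of 78.06 (vehicle) and 105.42 (cAMP). A further vehicle peak lay downstream (53.56), nearest to the TSS of *Sgo1*, and no cAMP peak overlapped it.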

How the data were processed

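ChIP-seq peaks of Ad4BP/SF-1 from vehicle- and cAMP-treated Leydig cells were analysed, with 1 library per condition. The authors mapped reads to mm10 with Bowtie (version 0.12.8 in the submitters' processing notes), allowed up to 3 mismatches, kept uniquely mapped reads and called peaks with MACS without its fragment model. The stated p-value threshold is looser than the lowest scores imply on the usual MACS scale. Whether the input served as control is not given in the sources used here. The deposited lists hold the position and the MACS score of each peak. Reads with several positions were left out upstream, which can remove peaks in repeated sequence.

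Positions were converted to count from 1 and joined to GENCODE M21 genes on the same genome build (GRCm38). Distances to a TSS, a 5′ end or a consensus copy were taken from peak centres, while those between peaks or from a gene body to a peak outside its window are gaps between the nearest edges. Introns were numbered in the principal transcript. A counterpart shared at least 1 bp with the peak. Sequences were read from the RefSeq copy of GRCm38 with pysam 0.24.0, and motifs were searched on both strands. Python 3.11.15, numpy 2.4.6, pandas 2.3.3, scipy 1.17.1 and matplotlib 3.10.9 were used. The sequence of 1 region is not reported here. The functions were tested on simulated data. The members and lists of relatives were chosen with earlier results of these data known. Named genes are the 10 members, relatives with a peak, and genes holding or nearest to peaks of either. Alternatives covered the window, the score threshold, list length, the overlap, the consensus and the TSS. No comparison between conditions was tested.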

Additional observations from a re-analysis of the deposited data

How the results depend on the processing

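No paired analysis was possible because each condition has 1 library, and leaving out a library was not possible for the same reason. Of 76 values under the alternatives, 40 stayed within 1.5 times of the reported count or within the interval of the reported share. Both distances from the TSS were counted as moved. The intervals of the consensus shares are wide, at 19.4% to 99.4% (vehicle) and 15.8% to 100% (cAMP). Equal list length leaves the cAMP list unchanged. Several values could thus hardly move, and the count of 40 is no measure of robustness. With the gene body only, *Atf1* was the 1 gene with a cAMP peak, 1 gene had both lists (beside 9.16% and 6.42% of all protein-coding genes), 1 cAMP peak remained and 100% of vehicle peaks held the consensus. With 10 kb on either side, 1 gene had a cAMP peak and 1 had both, beside 14% and 10.1% of all genes, and 1 cAMP peak remained. With 100 kb, 5 genes had a cAMP peak and 4 had both, beside 41.3% and 34.1%, with 10 vehicle peaks, of which 3 had a counterpart, and 7 cAMP peaks, of which 3 had one. With scores of at least 75, 1 gene had a vehicle peak, 1 a cAMP peak, 0 both and 2 either, beside 22.4%, 14.6%, 11.1% and 25.9%, with 1 peak in each list, 0 counterparts in either direction and the consensus in 0% of vehicle peaks. With at least 100, 0 genes had a vehicle peak, so that its shares could not be computed, 1 had a cAMP peak, 0 both and 1 either, beside 14.6%, 9.12%, 6.7% and 17% of all genes, with 0 vehicle peaks, 1 cAMP peak and 0 counterparts. With both lists at 4025 peaks, 2 genes had a vehicle peak and 1 both, beside 29.5% and 20%, with 2 vehicle peaks and 0 counterparts in either direction, since the vehicle peaks of *Atf1* and *Crtc3* ranked lower than this. From the outermost 5′ ends, the median distance of the peaks from the TSS was 10.4 kb (vehicle) and 13.8 kb (cAMP), against 5.58 and 11.3 kb from the nearest TSS. Apart from fewer or more peaks by construction, the cause was not tested. Since depth is unknown, a gene without a peak may still be bound below the threshold of the lists.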

Other observations

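Far outside the windows lay peaks of high rank. The vehicle peak nearest to *Creb1*, 436 kb beyond its 3′ end, scored 431.68, ranked 36 of 5721 and overlapped a cAMP peak, and the cAMP peak nearest to *Sik2*, 270 kb upstream, scored 196.94 and ranked 152 of 4025. Neither was assigned to the gene, and no link between these peaks and the genes was tested.

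Among the relatives, the peak assigned to *Creb3*, centred 28.8 kb upstream of it, lay in intron 52 of *Tln1*. The nearest TSS was that of *Tpm2*, and 10 protein-coding genes lay within 50 kb of the peak. It scored 306.74 (rank 93) in the vehicle list and 68.68 (rank 1962) in the cAMP list, at overlapping positions. *Mark2*, which encodes another kinase of the same group, had an overlapping pair in intron 2 with scores of 169.87 (vehicle) and 176.75 (cAMP), and a further vehicle peak in the same intron (60.40) that no cAMP peak overlapped. With 1 library per condition and unknown depth, the difference between the lists at the peak assigned to *Creb3* could not be tested.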
